A study of Homo sapiens with 6 samples.

Results

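The DUSP, Sprouty and SPRED genes examined here encode inhibitors of the RAS-ERK pathway. They comprise 5 MAP kinase phosphatases (DUSP1, DUSP4, DUSP5, DUSP6 and DUSP7), 3 Sprouty genes (SPRY1, SPRY2 and SPRY4) and 2 SPRED genes (SPRED1 and SPRED2). They were taken by gene symbol from a table of 63009 genes, in which each of the 10 symbols occurred once. The RNA-seq data comprised 6 libraries of IMR90 cells, primary human lung fibroblasts, that had been transduced with the retroviral construct pLNC-Ras:ER and are called ERRAS cells. This construct encodes ER-H-RasV12, an oncogenic Ras fused to an estrogen receptor domain, whose activity is switched on by tamoxifen. Control mitotic cells (3 libraries) carried the construct but were not induced, whereas Ras-induced mitotic cells (3 libraries) had received 100 nM tamoxifen, as the sample labels give it, for 4 days. The study's methods name 4-hydroxytamoxifen and give its dose by weight per volume, which does not equal the labelled dose. Cells of both groups were arrested in mitosis with 1 μM DME, an inhibitor of the spindle motor Eg5, and the detached cells were collected. Because both groups carried the construct and tamoxifen was given to the induced cells alone, activated Ras and tamoxifen itself cannot be told apart in these data.

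Growth factor receptors and RAS activate the kinase cascade of RAF, MEK and ERK, and active ERK switches on genes whose products then restrain the same cascade. DUSP proteins of the MAP kinase phosphatase group remove phosphate from both the threonine and the tyrosine of the MAP kinase activation loop. DUSP1, DUSP4 and DUSP5 are nuclear enzymes, and DUSP6 and DUSP7 are cytoplasmic and prefer ERK. Sprouty proteins interfere between receptor and RAF, and SPRED proteins bring the RAS GTPase-activating protein neurofibromin to the membrane. In fibroblasts with an active RAS oncogene, induction of such inhibitors is a known feature of the senescence response.

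Promoter sequences are shown for 3 genes that differed in response, as the rest of the results returns to them. RefSeq promoter windows were held for 8 of the 10 genes (12 windows), and those of DUSP4 and DUSP5 were not used here. The 250 bases before the start were searched on both strands for the AP-1 motif (TGANTCA), the CRE core bound by CREB (TGACG), an ETS motif (CCGGAAG) and the E-box (CACGTG). Capitals mark matches, each window reads 5′ to 3′ on the gene's own strand, and coordinates are those of GRCh37, to which each RefSeq window (GRCh38.p14) matched once. DUSP6 had the largest rise, SPRY2 also rose, and DUSP1 did not pass the test.
DUSP6, chr12:89746279-89746528, minus strand: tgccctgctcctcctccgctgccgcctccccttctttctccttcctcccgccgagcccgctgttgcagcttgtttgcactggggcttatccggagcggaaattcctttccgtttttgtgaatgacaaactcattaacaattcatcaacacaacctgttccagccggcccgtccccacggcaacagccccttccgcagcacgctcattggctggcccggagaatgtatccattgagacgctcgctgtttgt
SPRY2, first of 3 starts, chr13:80915262-80915511, minus strand: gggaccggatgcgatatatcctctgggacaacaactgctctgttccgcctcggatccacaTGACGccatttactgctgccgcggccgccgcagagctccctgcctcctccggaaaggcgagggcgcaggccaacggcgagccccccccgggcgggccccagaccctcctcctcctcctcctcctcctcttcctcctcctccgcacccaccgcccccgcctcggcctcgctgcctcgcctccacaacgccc
DUSP1, chr5:172198199-172198448, minus strand: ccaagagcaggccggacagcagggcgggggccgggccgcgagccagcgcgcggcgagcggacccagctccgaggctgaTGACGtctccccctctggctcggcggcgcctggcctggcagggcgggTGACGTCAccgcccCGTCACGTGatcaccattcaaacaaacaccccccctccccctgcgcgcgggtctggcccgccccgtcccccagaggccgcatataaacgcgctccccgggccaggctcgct
The DUSP6 window held none of the 4 motifs, whereas the SPRY2 window held 1 CRE core, 190 bases upstream of the start. The DUSP1 window held 4 CRE core matches, of which a pair read the same palindrome on opposite strands, and 1 E-box that overlapped a further CRE core. Among the other windows, that of SPRY4 held 1 CRE core and 1 of the 2 SPRY1 windows held 1 ETS motif, and the windows of DUSP7, SPRED1 and SPRED2 held none. Over 35116 RefSeq promoters, the CRE core occurred in 21.2%, the ETS motif in 8.52%, the AP-1 motif in 6.57% and the E-box in 6.34%. These matches describe letters in a short window and were not tied to the measured changes.

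Expression is given as FPKM, a fragment number divided by the length of the transcript and by the size of the library, which allows levels to be compared between genes. The 13993 genes whose mean over the libraries reached 1 FPKM were tested on log2(FPKM + 1), and a gene was called when its adjusted p from limma was at or under 0.05. Read totals were not used here, but the spacing of low FPKM values placed the depth of the other 5 libraries between 0.849 (Ras-induced 2) and 1.17 (control 3) times that of control 1. The study's text states that the experiment was independently repeated, whereas the labels number the libraries without naming their cultures. HRAS, whose coding sequence is in the construct, was at 1174, 1176 and 1140 FPKM in control and at 1439, 1847 and 1473 FPKM in Ras-induced libraries. Reads of the construct and of the cells' own gene cannot be separated in this table. Its log2 difference of 0.44 (SE 0.11) passed the test at an adjusted p of 0.0431, but not when any one library was left out (adjusted p 0.0598 to 0.156).

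Fibroblast markers were present in every library, with COL1A1, COL1A2, COL3A1, PDGFRB, THY1 and VIM summing to 4642 to 5243 FPKM in control and 3010 to 4239 FPKM in Ras-induced cells. Of these 6, COL1A2 and THY1 were called lower, beside 5.67% of all tested genes, the former not without control 2 (adjusted p = 0.0576) or Ras-induced 1 (0.0518). COL1A1 and COL3A1 were near the threshold (adjusted p = 0.0501 and 0.0553) and were called lower with upper-quartile scaling (0.0437 and 0.0477), a pseudocount of 0.1 (0.0386 and 0.0436) and only genes of at least 5 FPKM (0.0343 and 0.0389), and COL1A1 also with quantile normalization (0.0368) and the replicate block (0.0456). The 6 mitotic markers summed to 1489 to 1533 FPKM in control and 1231 to 1367 FPKM in Ras-induced cells. CDK1 was listed at only 2.13 to 5.93 and 1.56 to 3.40 FPKM, beside 526 to 589 and 440 to 516 FPKM for CCNB1. The reason for the low CDK1 values was not tested. Of the 6, PLK1 and BUB1 were called lower, by 0.27 and 0.30 on the log2 scale. The BUB1 call was lost when any library was left out (adjusted p 0.0574 to 0.0988), without the filter on low values (0.0604) and without the trend (0.0713). The PLK1 call was lost when any library but control 3 was left out (up to 0.129) and in each other alternative except quantile normalization and upper-quartile scaling (0.0516 to 0.0837). Of the other cell types, the epithelial genes EPCAM, CDH1, KRT5 and KRT14 summed to 17.0 to 32.8 and 19.6 to 21.2 FPKM, whereas the 3 endothelial and 4 blood cell markers each summed to under 0.1 FPKM (at most 0.0988 and 0.0936) in every library. The lower mitotic and fibroblast markers moved with the groups, and their part in the results below was not tested. In bulk RNA, fewer cells expressing a gene and less RNA per cell cannot be told apart.

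Of the 10 inhibitor genes, 9 were tested and 6 were called higher in Ras-induced cells, namely DUSP4, DUSP5, DUSP6, SPRY2, SPRY4 and SPRED2. None was called lower, and DUSP1, DUSP7 and SPRED1 did not pass the test. Over all tested genes, 11.0% were called higher and 5.67% lower, 16.7% in either direction. SPRY1 had a mean under 1 FPKM and was not tested. DUSP4 passed the filter on low values through its Ras-induced libraries, so its presence among the tested genes is not independent of its rise. The median log2 difference of the 9 tested genes was 1.01, beside 0.10 over all tested genes. When the libraries were set to equal upper quartiles, the median of all genes moved to 0.0047 and the share called to 6.58% higher and 7.87% lower, and 4 of the 9 genes were then called higher. With quantile normalization 5 of the 9 were called higher, beside 7.46% of all genes higher and 7.93% lower. Requiring a log2 difference of at least 1 as well left 5 of the 9, beside 2.22% of all tested genes. The 4 genes called after upper-quartile scaling, DUSP4, DUSP6, SPRY2 and SPRED2, were also called under each other scaling, filter and fit tried in which they were tested, and with any 1 library left out.

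**Figure D1:**
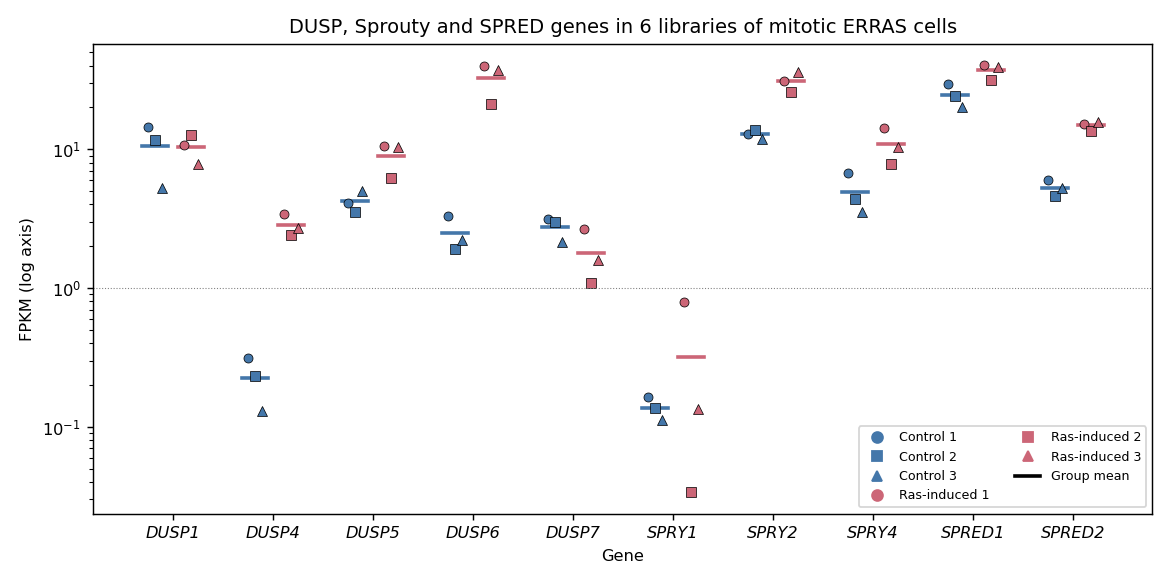
FPKM of the 10 genes in each library on a log axis, with control libraries in blue, Ras-induced libraries in red, a marker shape for each library number and a bar at each group mean (3 libraries a group). The dotted line marks 1 FPKM. DUSP6 stands at 1.92 to 3.31 FPKM in control and 21.2 to 39.8 FPKM in Ras-induced libraries, while the points of DUSP1, DUSP7 and SPRY1 overlap between the groups.

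Among the cytoplasmic phosphatases, DUSP6 (ENSG00000139318, chr12:89741012-89746278) had the largest rise of the 10 genes and DUSP7 did not rise. DUSP6 encodes the ERK-selective phosphatase that binds ERK tightly and holds it in the cytoplasm. Its level was 3.31, 1.92 and 2.23 FPKM in the control libraries and 39.8, 21.2 and 37.2 FPKM in the Ras-induced libraries. The groups were far apart, since the lowest Ras-induced library exceeded every control library several-fold. The mean rose from 2.49 ± 0.729 to 32.7 ± 10.04 FPKM (SD, n = 3), a ratio of 13.1. On the log2(FPKM + 1) scale the difference was 3.24 (SE 0.26, 95% interval 2.61 to 3.87, adjusted p = 0.00198). It ranked 31 of 13993 tested genes from the largest rise, and its difference stayed between 3.08 and 3.65 over the 14 alternative analyses. An unnamed gene (ENSG00000274021) annotated on the opposite strand shares 1487 bases with DUSP6 and was not analysed here, and since the library kit does not mark strand, reads of the shared bases cannot be assigned.

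DUSP7 (ENSG00000164086, chr3:52082935-52090587), the closest relative of DUSP6 in specificity among these genes, was at 3.16, 3.00 and 2.16 FPKM in control and at 2.65, 1.08 and 1.59 FPKM in Ras-induced libraries. Ras-induced libraries 2 and 3 lay under every control library, but library 1 lay among them. The means were 2.77 ± 0.538 and 1.77 ± 0.802 FPKM (SD, n = 3), and the log2 difference of -0.47 (SE 0.24, 95% interval -1.06 to 0.11) did not pass the test (adjusted p = 0.228). A moderate fall of DUSP7 is therefore within the interval, whereas a rise of the size of DUSP6 is not. Control libraries held DUSP6 and DUSP7 at similar levels, with a DUSP6 to DUSP7 ratio of 1.05, 0.641 and 1.03. In Ras-induced libraries the ratio was 15.0, 19.7 and 23.3, so the separation between the pair was seen in each library.

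**Figure D2:**
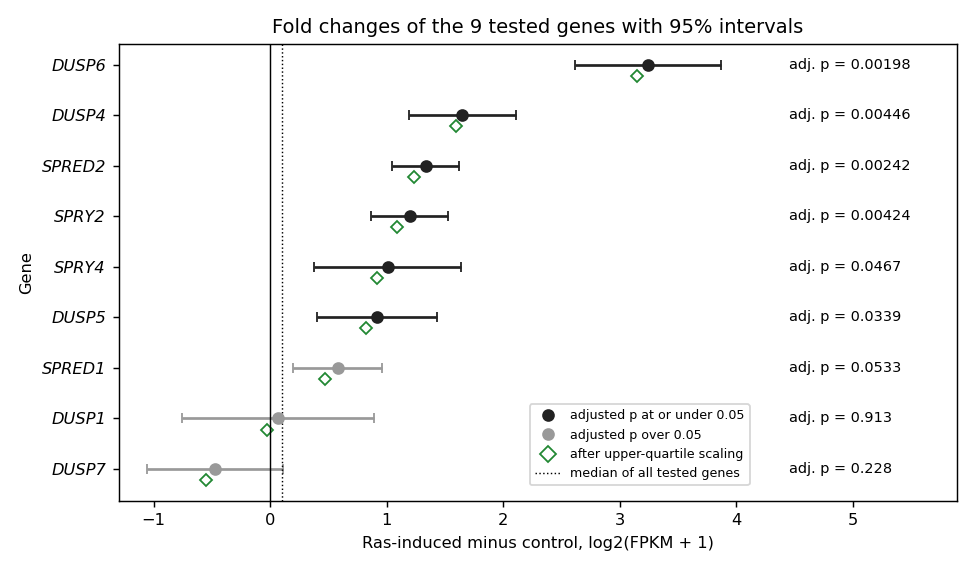
Difference between Ras-induced and control cells on the log2(FPKM + 1) scale for the 9 tested genes, with 95% intervals from limma (3 libraries a group) and the adjusted p at the right. Black points were called, green diamonds give the difference after upper-quartile scaling, and the dotted line is the median of all tested genes at 0.10. DUSP6 lies at 3.24, and the intervals of DUSP1 and DUSP7 include 0.

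Of the 3 nuclear phosphatases, DUSP4 and DUSP5 were called higher and DUSP1 was not called. DUSP4 (ENSG00000120875, chr8:29190581-29208201) encodes an inducible nuclear enzyme that acts on ERK, JNK and p38. It was at 0.315, 0.232 and 0.129 FPKM in control and at 3.44, 2.40 and 2.72 FPKM in Ras-induced libraries. All control libraries were thus under 1 FPKM and all Ras-induced libraries above it. The means were 0.225 ± 0.0930 and 2.86 ± 0.528 FPKM (SD, n = 3), a ratio of 12.7 that rests on the low control level. The log2(FPKM + 1) difference was 1.65 (SE 0.19, adjusted p = 0.00446), which understates the change of a gene this low, and with a pseudocount of 0.1 it was 3.21.

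DUSP5 (ENSG00000138166, chr10:112257665-112271291) encodes a nuclear phosphatase specific for ERK. Its level was 4.13, 3.51 and 4.99 FPKM in control and 10.5, 6.18 and 10.3 FPKM in Ras-induced libraries. The groups did not overlap, but Ras-induced 2 was much nearer to the control libraries than the other two. The mean rose from 4.21 ± 0.741 to 9.001 ± 2.45 FPKM (SD, n = 3), and the log2 difference was 0.92 (SE 0.22, adjusted p = 0.0339). The call held in 1 of the 6 fits that left out a library, the one without Ras-induced 2, and the adjusted p ran from 0.0146 to 0.126 over all alternatives.

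DUSP1 (ENSG00000120129, chr5:172195099-172198198), the founding stress- and growth-factor-inducible member, was at 14.5, 11.7 and 5.28 FPKM in control and at 10.7, 12.7 and 7.88 FPKM in Ras-induced libraries. The groups overlapped throughout, with the highest and the lowest value both in control libraries. The means were 10.5 ± 4.71 and 10.4 ± 2.42 FPKM (SD, n = 3), and the log2 difference was 0.068 (SE 0.35, 95% interval -0.76 to 0.89, adjusted p = 0.913). The sign was not fixed, since quantile and upper-quartile scaling gave -0.028 and -0.031. Its standard error was the largest of the 9 tested genes, and the interval leaves room for a rise or a fall of moderate size. Its 3100 bases are also overlapped on the opposite strand by ENSG00000253736, listed at a mean of 0.0943 FPKM.

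These differences changed which DUSP gene had the highest level. The summed FPKM of the 5 DUSP genes was 14.8 to 25.4 in control libraries (20.2 ± 5.30, SD, n = 3) and 43.6 to 67.1 in Ras-induced libraries (56.8 ± 12.0). DUSP1 made up 50.0% ± 12.4 of the sum in control cells and 19.4% ± 8.51 in Ras-induced cells. DUSP6 made up 12.5% ± 2.86 in control and 56.8% ± 7.13 in Ras-induced cells (SD, n = 3 each). The share of DUSP4 went from 1.08% to 5.07%, that of DUSP5 from 22.4% to 15.7%, and that of DUSP7 from 13.9% to 3.03%. A falling share here does not mean a falling level, since DUSP5 itself was called higher. Within libraries, the DUSP6 to DUSP1 ratio was 0.229, 0.165 and 0.423 in control and 3.72, 1.67 and 4.72 in Ras-induced cells.

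**Figure D3:**
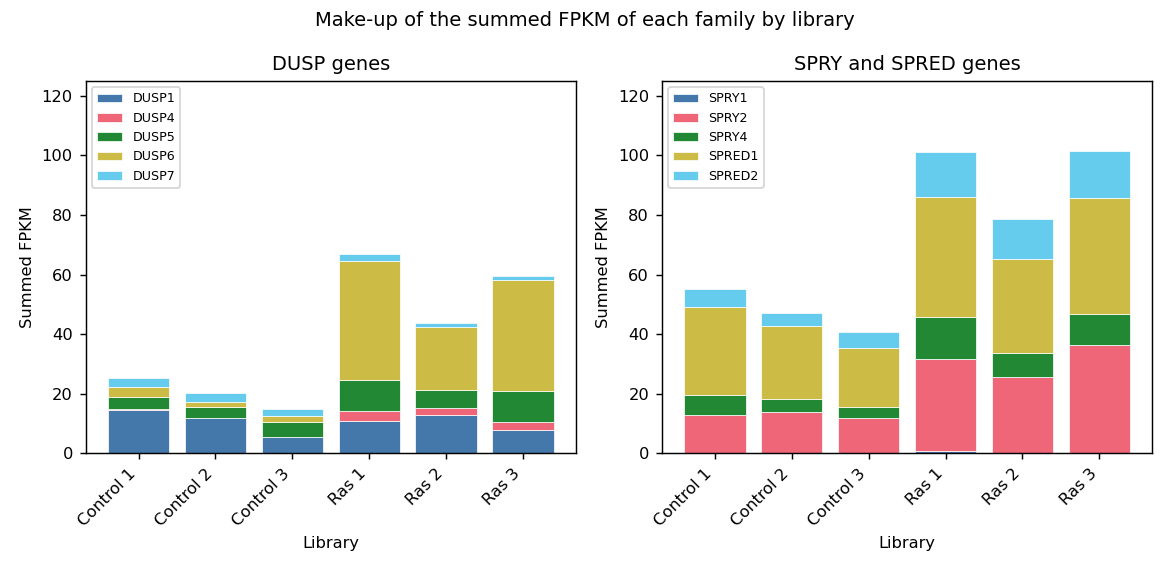
Stacked FPKM of the 5 DUSP genes (left) and of the SPRY and SPRED genes (right) in each of the 6 libraries, with the height of each segment giving 1 gene's FPKM. The DUSP6 segment is 1.92 to 3.31 FPKM high in control and 21.2 to 39.8 FPKM in Ras-induced libraries, while SPRED1 remains the largest segment of the right panel in each library.

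SPRY2 and SPRY4 were both called higher. SPRY2 (ENSG00000136158, chr13:80910111-80915261) encodes an inhibitor of receptor tyrosine kinase signalling that binds GRB2 and the ubiquitin ligase CBL. Its level was 12.8, 13.8 and 11.8 FPKM in control and 30.8, 25.7 and 36.3 FPKM in Ras-induced libraries. The control libraries were close together and all Ras-induced libraries were above them. The mean rose from 12.8 ± 1.04 to 30.9 ± 5.31 FPKM (SD, n = 3), a ratio of 2.41, with a log2 difference of 1.20 (SE 0.14, adjusted p = 0.00424). Leaving out any library kept the call, and over all alternatives the difference was 1.08 to 1.32.

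SPRY4 (ENSG00000187678, chr5:141689992-141706020) encodes an inhibitor that acts upstream of RAF. It was at 6.75, 4.36 and 3.53 FPKM in control and at 14.3, 7.86 and 10.3 FPKM in Ras-induced libraries. The groups did not overlap, but control 1 and Ras-induced 2 were only about 1 FPKM apart. The mean rose from 4.88 ± 1.67 to 10.8 ± 3.25 FPKM (SD, n = 3), with a log2 difference of 1.01 (SE 0.26, adjusted p = 0.0467). This call was near the threshold and was lost when any 1 library was left out (adjusted p 0.0572 to 0.153). SPRY4-AS1, annotated on the opposite strand, shares 1247 bases with SPRY4, and reads of these bases likewise cannot be assigned. SPRY4-AS1 was at 3.98, 1.57 and 1.34 FPKM in control and at 4.15, 3.32 and 4.43 FPKM in Ras-induced libraries. The ratio of SPRY2 to SPRY4 overlapped between groups, at 1.89, 3.18 and 3.33 in control and 2.15, 3.26 and 3.51 in Ras-induced cells.

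SPRY1 (ENSG00000164056, chr4:124317950-124324915), a further inhibitor of growth factor receptor signalling, was at 0.164, 0.137 and 0.111 FPKM in control and at 0.792, 0.0337 and 0.135 FPKM in Ras-induced libraries. Its lowest and its highest value were both in Ras-induced libraries, and no library reached 1 FPKM. In the fit without a filter on low values its log2 difference was 0.17 (adjusted p = 0.678).

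The SPRED genes had higher levels in all Ras-induced libraries, but only SPRED2 was called. SPRED2 (ENSG00000198369, chr2:65537985-65659771) was at 6.03, 4.60 and 5.25 FPKM in control and at 15.2, 13.5 and 15.8 FPKM in Ras-induced libraries. The spread within each group was small beside the gap between them. The mean rose from 5.29 ± 0.718 to 14.8 ± 1.18 FPKM (SD, n = 3), a ratio of 2.80, and the log2 difference was 1.33 (SE 0.12, adjusted p = 0.00242). Its standard error was the smallest of the 9 tested genes, and the difference stayed between 1.24 and 1.47 over the alternatives.

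SPRED1 (ENSG00000166068, chr15:38545037-38649450), the SPRED gene mutated in Legius syndrome, had the highest mean of the 10 genes in both groups. It was at 29.4, 24.2 and 20.0 FPKM in control and at 40.2, 31.5 and 39.1 FPKM in Ras-induced libraries. The groups did not overlap, although Ras-induced 2 lay close to control 1. The means were 24.5 ± 4.73 and 36.95 ± 4.72 FPKM (SD, n = 3), and the log2 difference of 0.58 (SE 0.16, 95% interval 0.20 to 0.96) missed the threshold at an adjusted p of 0.0533. It passed with a pseudocount of 0.1 (adjusted p = 0.0453), with only genes of at least 5 FPKM tested (0.0382) and, chosen after seeing the data, with only genes above 0 FPKM in every library (0.0274). The SPRED2 to SPRED1 ratio was 0.205, 0.190 and 0.263 in control and 0.379, 0.428 and 0.403 in Ras-induced libraries, with no overlap. In the summed FPKM of the SPRY and SPRED genes (47.7 ± 7.27 in control and 93.8 ± 13.2 in Ras-induced cells), the SPRED1 share was 51.3% and 39.4% and the SPRY2 share 27.2% and 32.9%.

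In 7 of the 9 tested genes, all Ras-induced libraries lay above all control libraries, and in none did all lie below. Over all tested genes, 27.1% lay wholly above and 12.8% wholly below, 39.9% in all. With 3 libraries against 3, an exact two-sided permutation test of 1 gene cannot give a p under 0.1, so this count is a description. From the largest rise, the ranks among 13993 genes were 31 for DUSP6, 226 for DUSP4, 321 for SPRED2, 375 for SPRY2, 529 for SPRY4 and 602 for DUSP5. SPRED1 ranked 1316, and DUSP1 and DUSP7 ranked 7576 and 12748.

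**Figure D4:**
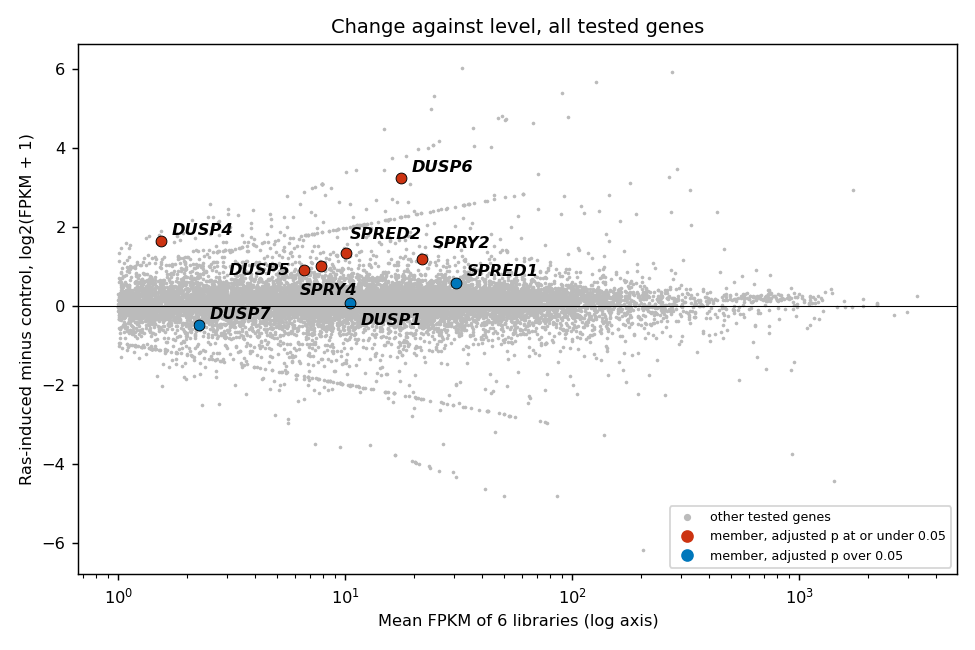
Difference between Ras-induced and control cells on the log2(FPKM + 1) scale against mean FPKM (log axis) for the 13993 tested genes in grey, with the 9 tested inhibitor genes marked (red, called; blue, not called). Grey points along oblique lines are among the 518 tested genes that the table lists at 0 in 1 or more libraries. DUSP6 lies at 3.24 and above the other marked genes, and DUSP7 lies below 0 at -0.47.

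In control cells the order of mean levels was SPRED1, SPRY2, DUSP1, SPRED2, SPRY4, DUSP5, DUSP7, DUSP6, DUSP4 and SPRY1. In 3 of the 9 neighbouring pairs the library ranges were apart (SPRED1 over SPRY2, DUSP5 over DUSP7, and DUSP6 over DUSP4). The library ranges of the other 6 pairs overlapped, and these pairs were not compared library by library. In Ras-induced cells the order was SPRED1, DUSP6, SPRY2, SPRED2, SPRY4, DUSP1, DUSP5, DUSP4, DUSP7 and SPRY1. Here too 3 pairs were apart (SPRY2 over SPRED2, DUSP5 over DUSP4, and DUSP7 over SPRY1). DUSP6 thus went from the eighth to the second place, where its range overlapped those of SPRED1 and SPRY2.

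Ras-induced library 2 had the lowest of the 3 Ras-induced levels for 8 of the 9 tested genes, and for each of the 6 called ones. Over all tested genes it was the lowest for 40.5%. Its DUSP6 level was 55.2% of the mean of Ras-induced 1 and 3, its DUSP5 level 59.3%, its SPRY4 level 63.8% and its DUSP7 level 50.8%. SPRY2, DUSP4, SPRED1 and SPRED2 were at 76.5%, 78.1%, 79.5% and 87.1%, whereas the median over all tested genes was 98.8%. DUSP1 was the exception, at 136.8%. HRAS was highest in the same library, at 1847 FPKM, and its relative depth of 0.849 was the lowest of the 6. The part of depth or of construct level in these low values was not tested. In the control group, library 1 had the highest level for 7 of the 9 genes, beside 36.1% of all tested genes.

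**Figure D5:**
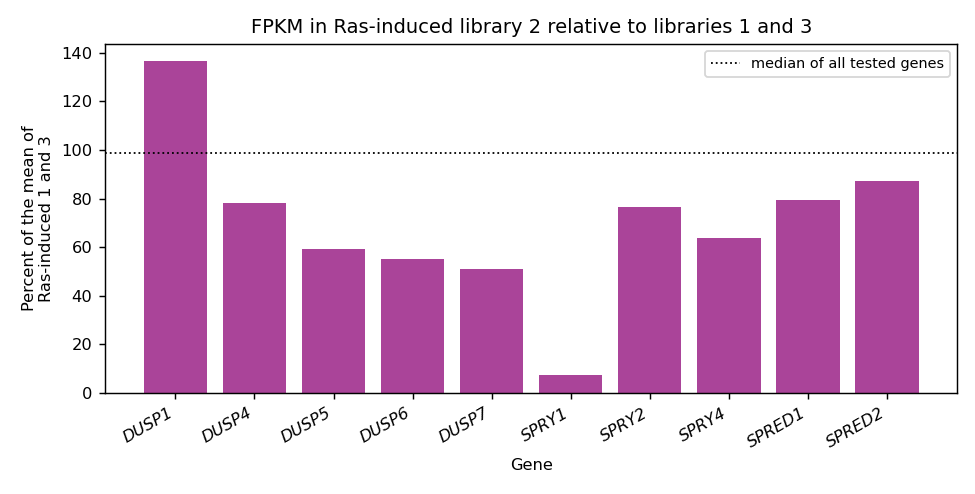
FPKM in Ras-induced library 2 as a percentage of the mean of Ras-induced libraries 1 and 3, 1 bar a gene, with the dotted line at the median of all tested genes (98.8%). The bars of the genes other than DUSP1 end below the line, with DUSP6 at 55.2%, and the SPRY1 bar rests on levels under 1 FPKM.

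Of 5 further MAP kinase phosphatases, 2 were tested and neither was called, beside the 16.7% called among all tested genes. DUSP10, which acts on JNK and p38, was at 3.23 ± 0.582 FPKM in control and 4.11 FPKM in Ras-induced cells (n = 3), with a log2 difference of 0.26 (95% interval -0.21 to 0.73) and an adjusted p of 0.409. DUSP16, a JNK phosphatase, was at 3.74, 5.37 and 5.18 FPKM in control and lower in each Ras-induced library, at 3.52, 3.01 and 3.09 FPKM, but the log2 difference of -0.44 did not pass the test (adjusted p = 0.0956). DUSP2, DUSP8 and DUSP9 had means under 1 FPKM and were not tested. Of 9 atypical dual-specificity phosphatases, which lack the MAP kinase binding domain, 8 were tested and 1 was called, DUSP18, which rose from 2.67 to 5.64 FPKM (log2 difference 0.85, adjusted p = 0.0113). Without control 1 or without Ras-induced 3 its adjusted p was 0.0505 or 0.0503. DUSP3 was at 25.9 to 33.6 FPKM in control and 36.5 to 46.4 FPKM in Ras-induced libraries but missed the threshold (adjusted p = 0.0629). It passed with genes of at least 5 FPKM (0.0479) and with the replicate block (0.0222), and over all alternatives its adjusted p reached 0.169.

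Of 12 other negative regulators of receptor and RAS signalling, 11 were tested, none was called higher and 1 was called lower, beside the 11.0% and 5.67% of all tested genes. The gene called was RASA1, which encodes a RAS GTPase-activating protein. RASA1 fell from 80.2 to 60.2 FPKM (log2 difference -0.41, adjusted p = 0.0265), a call that was lost when any library but control 3 was left out (adjusted p 0.0608 to 0.0913). NF1, which encodes the neurofibromin that SPRED proteins bind, had means of 11.3 FPKM in control and 10.9 FPKM in Ras-induced cells.

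Of 16 RAS-ERK cascade genes, 1 was called higher and 1 lower, a share near the 16.7% called among all tested genes. MAP2K1, which encodes MEK1, rose from 44.9 to 58.0 FPKM (log2 difference 0.36, adjusted p = 0.0304). Its call was lost with quantile normalization (adjusted p = 0.1004), upper-quartile scaling (0.118) and no mean-variance trend (0.0509), and in 5 of the 6 fits that left out a library, all but the one without control 3. KSR1, a scaffold of RAF and MEK, fell from 5.55 to 2.72 FPKM (log2 difference -0.80, adjusted p = 0.0315), a call also lost when any library but control 3 was left out (adjusted p up to 0.108) and without the filter on low values (0.0836). SHC1 was listed at 0 FPKM in control 2 and above 100 FPKM in each other library, so its difference was not read. MAPK3, which encodes a substrate of these phosphatases, was at 27.0 FPKM in control and 34.7 FPKM in Ras-induced cells. Of 13 genes for JNK, p38 and ERK5 kinases, 11 were tested and 2 were called higher, beside 11.0% of all tested genes. With only genes of at least 5 FPKM tested, 4 of the list were called higher, beside 1451 of 10056 genes. MAPK13, a p38 isoform, rose from 13.2 to 38.6 FPKM (log2 difference 1.49, adjusted p = 0.00126), and MAP2K7, a JNK kinase, rose from 7.06 to 10.1 FPKM (0.46, adjusted p = 0.0272). The MAP2K7 call was lost with quantile normalization (adjusted p = 0.0527), upper-quartile scaling (0.0696), no filter (0.0520) and the replicate block (0.0546), and when any library but control 3 was left out (up to 0.0919).

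Among 10 other genes known as ERK targets, all were tested, 4 were called higher and 1 lower, beside 11.0% and 5.67% of all tested genes. EGR1, an immediate-early transcription factor, rose from 4.25 to 20.2 FPKM (log2 difference 2.00, adjusted p = 0.0028). IER3, an early-response gene, rose from 58.7 to 156.1 FPKM (log2 difference 1.41, adjusted p = 0.00283), and FOS and PHLDA1 were called higher as well. The PHLDA1 call was lost without Ras-induced 1 (adjusted p = 0.0502). FOSL1, which encodes the AP-1 subunit FRA1, fell from 271.4 to 119.6 FPKM (log2 difference -1.18, adjusted p = 0.00366). The list therefore did not move in 1 direction, and CCND1, EPHA2, EPHA4, ETV4 and ETV5 were not called (EPHA4 was with the replicate block, adjusted p = 0.0217, and without Ras-induced 2).

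The genes with the pattern most like that of DUSP6 over the 6 libraries, by Pearson's r of log2(FPKM + 1), were ABRACL (r = 0.9987), PARP4 (0.9973) and YTHDF3 (0.9972). ABRACL went from 50.6 to 86.2 FPKM, so the likeness is one of order and spacing and not of size. These r values share the same 6 libraries and their group difference, and 37 tested genes had an r over 0.99.

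The 10 genes lie on 9 chromosomes, with DUSP1 and SPRY4 both on chromosome 5. Their main (MANE Select) transcripts have 2 to 7 exons, beside a median of 9 for the 10830 tested genes that have one. The DUSP genes have 3 or 4 exons, the SPRY genes 2 or 3, and SPRED2 and SPRED1 have 6 and 7. The gene spans run from 3100 bp for DUSP1 to 121787 bp for SPRED2, and the genes called higher include both compact ones such as DUSP6 (5267 bp) and SPRY2 (5151 bp) and the long SPRED2.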

How the data were processed

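RNA-seq was analysed from 6 libraries of mitotic ERRAS cells, 3 control and 3 Ras-induced, grouped by the sample labels. The deposited table of FPKM values was made by the authors with Cufflinks from poly(A) reads trimmed with Trim Galore 0.3.0 and aligned to hg19 with TopHat2 and the gene models of Ensembl build 73. Its columns name the group and a number but not the sample, so each was used as a replicate of its group. A further 18 columns without a name were not used, and 120 genes with more than 6 values were left out, which leaves 63009 of 63129 genes. The cuffdiff table holds the authors' own fold changes and p-values and was not used.

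FPKM values are not counts and do not state read totals. A linear model without covariates was therefore fitted to log2(FPKM + 1) of the 13993 genes whose mean reached 1 FPKM. It was fitted in limma 3.58.1 (R 4.3.3), moderated with a trend of variance on mean, and its two-sided p-values were adjusted by Benjamini-Hochberg over these genes. Fold changes on this scale understate those of low genes. Every adjusted p is from limma. Of the tested genes, 518 are listed at 0 FPKM in 1 or more libraries, and 17 of these were called. The 10 genes, the comparison lists and the rule for named genes were chosen with earlier results of these data known. Named were the 10 genes, HRAS, the other MAP kinase phosphatases, up to 3 called genes of largest change per list, and the 3 genes most correlated with the member of largest change. Outside this rule, FOS, PHLDA1, CCND1, EPHA2, EPHA4, ETV4, ETV5, ERRFI1, NF1, SHC1, MAPK3, SPRY4-AS1 and DUSP3 were named after their values were seen. So were the remaining cell type markers. Coordinates and exons are from GENCODE 44 on GRCh37, and promoters from RefSeq. Python 3.11.15, pandas 2.3.3 and matplotlib 3.10.9 made tables and figures.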

Additional observations from a re-analysis of the deposited data

How the results depend on the processing

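The 9 tested genes were refitted with another pseudocount, other filters, other scalings, no trend, a replicate block and each library left out. DUSP4, DUSP6, SPRY2 and SPRED2 kept their calls in each fit that included them (DUSP4 was outside the set of genes with at least 5 FPKM). The count of 6 genes called higher was 4 to 5 with 1 library left out, and 4 without the filter on low values and with upper-quartile scaling. It was 5 with quantile normalization, without the trend and when an absolute log2 difference of at least 1 was also required. It was 7 with a pseudocount of 0.1 and with genes above 0 FPKM in every library. Over all genes, 960 of 29362 were called higher without the filter and 1614 of 13993 with a pseudocount of 0.1. None of the 9 was called lower in any of these fits, and SPRY1 was fitted only without the filter (0.17, adjusted p = 0.678). DUSP5 was not called without the filter (0.92, adjusted p = 0.0894) or with upper-quartile scaling (0.82, adjusted p = 0.0555), and was 0.80 to 1.14 with 1 library left out. SPRY4 was not called without the filter or without the trend (1.01 in both, adjusted p = 0.119 and 0.0586), with quantile normalization (0.93, adjusted p = 0.0517) or with upper-quartile scaling (0.91, adjusted p = 0.0629), and was 0.81 to 1.23 with 1 library left out. SPRED1 was called with a pseudocount of 0.1 (0.60), with a mean of at least 5 FPKM (0.58) and with genes above 0 FPKM in every library (0.58), the last chosen after seeing the data. DUSP1 turned negative under quantile and upper-quartile scaling (-0.028 and -0.031), without control 3 (-0.32) and without Ras-induced 2 (-0.074), within a range of -0.32 to 0.33. HRAS lost its call without the filter and without the trend (0.44 in both, adjusted p = 0.166 and 0.0612) and with upper-quartile scaling (0.33, adjusted p = 0.0925), and was 0.32 to 0.50 with 1 library left out. Of the 6 comparison lists together, 8 genes were called higher and 3 lower, beside 11.0% and 5.67% of all tested genes. The 10 other ERK targets held 4 of the genes called higher. The counts of the 6 lists were 3 and 1 with a log2 difference of at least 1. With 1 library left out they were 5 to 8 and 1 to 4. Whether the replicate numbers pair the libraries was not settled. Same-numbered libraries deviated together at correlations of -0.0027, 0.043 and 0.048 over the tested genes. Not every library correlated best with its own number, but such weak correlations cannot exclude a pairing. With the numbers as a replicate block, the same count of 6 genes was called, 1466 genes were called higher and 844 lower over all, and HRAS lost its call (0.44, adjusted p = 0.0526). Over all genes, 2336 were called, against 1518 without the filter and 860 to 1872 with 1 library left out, where fewer libraries were fitted (1443 or fewer for each library but control 3). Quantile normalization called 1044 higher and 1109 lower and upper-quartile scaling 921 and 1101, beside 1543 and 793 for the deposited scaling. The causes of these changes were not tested. With 3 libraries a group and no read counts, the precision of genes near 1 FPKM could not be separated from counting error.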

Other observations

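The low levels of the inhibitor genes in Ras-induced library 2 were set beside those of the comparison lists, with 40.5% of all tested genes lowest in that library. Both tested genes of the other MAP kinase phosphatases were lowest there, with a median of 77.7% of the mean of Ras-induced 1 and 3, and so were 10 of the 16 RAS-ERK cascade genes (median 90.8%). Of the 10 other ERK targets, 4 were lowest there (median 96.9%), as were 3 of 8 atypical phosphatases (100.1%), 4 of 11 other negative regulators (92.4%) and 4 of 11 JNK, p38 and ERK5 kinases (99.9%). None of the 6 fibroblast markers was lowest in that library (median 133.3%), and 1 of the 6 mitotic markers was (median 103.2%). In Ras-induced cells EGR1 was at 21.2, 15.4 and 23.8 FPKM, with its lowest value in library 2 as for DUSP6, whereas IER3, at 149.9, 160.0 and 158.3 FPKM, had its highest value there. What set library 2 apart was not tested.

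EPHA4, an ephrin receptor taken as an ERK target, was at 2.58, 1.80 and 3.90 FPKM in control and at 7.10, 3.47 and 9.70 FPKM in Ras-induced libraries. Its Ras-induced values had the order of DUSP5 and DUSP6 between libraries 1 and 2, but its groups overlapped and it was not called (adjusted p = 0.104), except with the replicate block (0.0217) and without Ras-induced 2. ERRFI1, an inhibitor of the EGF receptor, was at 136.3, 73.4 and 99.1 FPKM in control and at 174.3, 154.5 and 160.2 FPKM in Ras-induced cells, a separation that missed the threshold (adjusted p = 0.0665). It was called with genes of at least 5 FPKM (0.0498), with the replicate block (0.0414), with genes above 0 FPKM in every library (0.0315) and without control 1, and over all alternatives the adjusted p ran from 0.0315 to 0.182. Both genes were named after their values were seen.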
